A study of Mus musculus with 9 samples.

Results

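The genes described here are Trp53, which encodes the transcription factor p53, and 9 of its target genes: Mdm2, Ccng1, Phlda3, Eda2r, Sesn1, Zmat3, Aen, Trp53inp1 and Btg2. They were looked up by name, and all 10 were found among the 26683 genes of the count table. Bulk RNA sequencing of mouse retina at postnatal day 17 gave 9 libraries from 3 groups of 3. Normoxic retinas came from mice raised in room air. The PBS group had oxygen-induced retinopathy (OIR), in which high oxygen halts the growth of retinal vessels and abnormal vessels sprout once the pups breathe room air again. Their eyes received phosphate-buffered saline in the vitreous at postnatal day 15. Gel retinas came from OIR mice injected on the same day with the PCC1/PHCF hydrogel, which releases procyanidin C1 (PCC1), a plant polyphenol described in the title of the series as acting selectively against senescent cells. No strain or genotype is stated in the sources used here. The labels do not mention an injection of Normoxic mice, and no group received an empty hydrogel, so oxygen history and injection, and drug and carrier, cannot be told apart. The replicates of a group are not stated to be separate animals, so each p-value measures only the spread between these samples, which may be technical.

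The p53 protein binds DNA as a tetramer and switches on genes that halt the cell cycle, repair DNA, limit growth or trigger cell death. It is controlled mainly through its own stability: Mdm2, itself a p53 target, marks p53 for degradation and so closes a feedback loop. The amount of Trp53 mRNA therefore says little of the activity of the protein, which is read more often from the mRNA of its targets, as in damaged or dying neurons of the retina.

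A p53 binding site consists of a pair of decamers, and single decamers are common in the genome. The RefSeq promoter windows (250 bases before to 50 bases after each annotated start, build GRCm38.p6, another build than that of the count table) held 8 of the 10 genes, without Zmat3 and Trp53inp1. Both strands were searched for the consensus p53 decamer, a palindrome, and for no other motif. The decamer was found in windows of 5 of these 8 genes (Aen, Ccng1, Mdm2, Sesn1 and Trp53) and of 2582 of all 27025 genes (9.55%). A full pair of decamers with a spacer of 0 to 13 bases was found in 0 of the 8 genes and in 20 of all genes (0.074%). With 1 mismatch allowed in an adjacent pair, a search added after the windows had been seen, Ccng1 held a pair, as did 22 of all genes (0.0814%), Cdkn1a among them. Cdkn1a, which encodes the cell cycle inhibitor p21 and whose values are compared with those of the 10 genes below, is also among the 20 genes with a full pair. The matched stretches are shown 5′ to 3′ on the strand of the gene because they let the single decamers be set beside the pairs, and capitals mark the matched bases, with the spacer of the Cdkn1a pair in lower case.
Cdkn1a, full pair: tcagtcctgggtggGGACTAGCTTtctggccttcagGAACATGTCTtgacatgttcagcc
Ccng1, pair with 1 mismatch: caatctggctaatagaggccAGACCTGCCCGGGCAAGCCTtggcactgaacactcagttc
Trp53, single decamer: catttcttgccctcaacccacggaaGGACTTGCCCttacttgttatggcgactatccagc
Mdm2, single decamer: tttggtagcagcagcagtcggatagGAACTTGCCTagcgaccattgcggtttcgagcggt
Sesn1, single decamer: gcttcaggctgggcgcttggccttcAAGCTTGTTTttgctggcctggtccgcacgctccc
Aen, single decamer: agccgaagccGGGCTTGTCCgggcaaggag

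The Cdkn1a stretch lies at chr17:29090892-29090951 (plus strand), with the pair 73 to 42 bases upstream of the annotated start and a spacer of 12 bases. Its adjacent pair with 1 mismatch, 51 to 32 bases upstream, starts with the downstream decamer of the full pair. The Ccng1 stretch lies at chr11:40755442-40755501 (minus strand), with the pair 195 to 176 bases upstream. The Trp53 stretch is chr11:69580259-69580318 (plus strand), with its decamer 75 to 66 bases upstream. The Mdm2 decamer is 186 to 177 bases upstream, within chr10:117710910-117710969 (minus strand). For Sesn1 it is 173 to 164 bases upstream, within chr10:41887241-41887300 (plus strand), and for Aen 121 to 112 bases upstream, within chr7:78895927-78895956 (plus strand). A match of this kind is a description of the letters and shows no binding. No match was found in the windows of Phlda3, Eda2r and Btg2, which says only that the letters are not in these stretches.

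Libraries held 29324142 to 35663470 counts in total, and 1 CPM (the count of a gene per 1000000 counts of its library) stood for 29.3 counts or more. The 5 rod photoreceptor markers summed to 43406 to 61662 CPM in the 9 libraries, so the labelled tissue showed its main cell type. The OIR libraries followed gene length, PBS replicate 3 the most. Across genes, its deviation from the mean of its group fell with gene length (Spearman's rho -0.49). The values of the Normoxic libraries lay between -0.05 and 0.03. The other PBS libraries had values of 0.32 and 0.41, and the Gel libraries had 0.32, -0.29 and -0.20. Deviations from the mean of a group balance out, so opposite signs within a group are partly forced. The log2 fold changes followed gene length too, with a rho of -0.30 in PBS against Normoxic. It was 0.32 in Gel against PBS and -0.17 in Gel against Normoxic. Values without PBS replicate 3 are given beside results that it moves. Differences were tested with the edgeR quasi-likelihood test, and "called" stands for a p-value under 0.05 after Benjamini-Hochberg adjustment over the 17362 genes that passed the filter on low counts. All 10 genes passed this filter. For Eda2r it was passed through the OIR libraries only: it reached the cutoff of 0.319 CPM in 0 Normoxic, 3 PBS and 1 Gel libraries, so it had to differ between groups. The other 9 reached it in all 9 libraries.

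Among the 10 genes, 2 were called higher in PBS than in Normoxic retinas, Phlda3 and Eda2r, and 0 were called lower. Since Eda2r passed the filter only through the OIR libraries, the count without it is 1 of 9. Phlda3 rose 2.43-fold. Over all genes tested, 4.31% were called higher and 2.03% lower in that comparison. Between Gel and PBS, 0 of the 10 genes were called higher and 0 lower, as were 0% and 0% of all genes by edgeR. In Gel against Normoxic retinas 1 of the 10 was called higher, again Phlda3, and 0 lower, against 1.12% and 0.288% of all genes. All 3 PBS libraries lay above all 3 Normoxic libraries for 4 of the 10 genes (Trp53, Phlda3, Eda2r and Sesn1) and below them for 0, where 14.9% and 14.1% of all genes did so; without Eda2r the count is 3 of 9. The corresponding counts were 3 above (Phlda3, Eda2r and Sesn1) and 0 below for Gel against Normoxic (11.1% and 12.8% of all genes), or 2 of 9 without Eda2r, and 0 and 0 for Gel against PBS (2.73% and 5.15% of all genes).

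**Figure D1:**
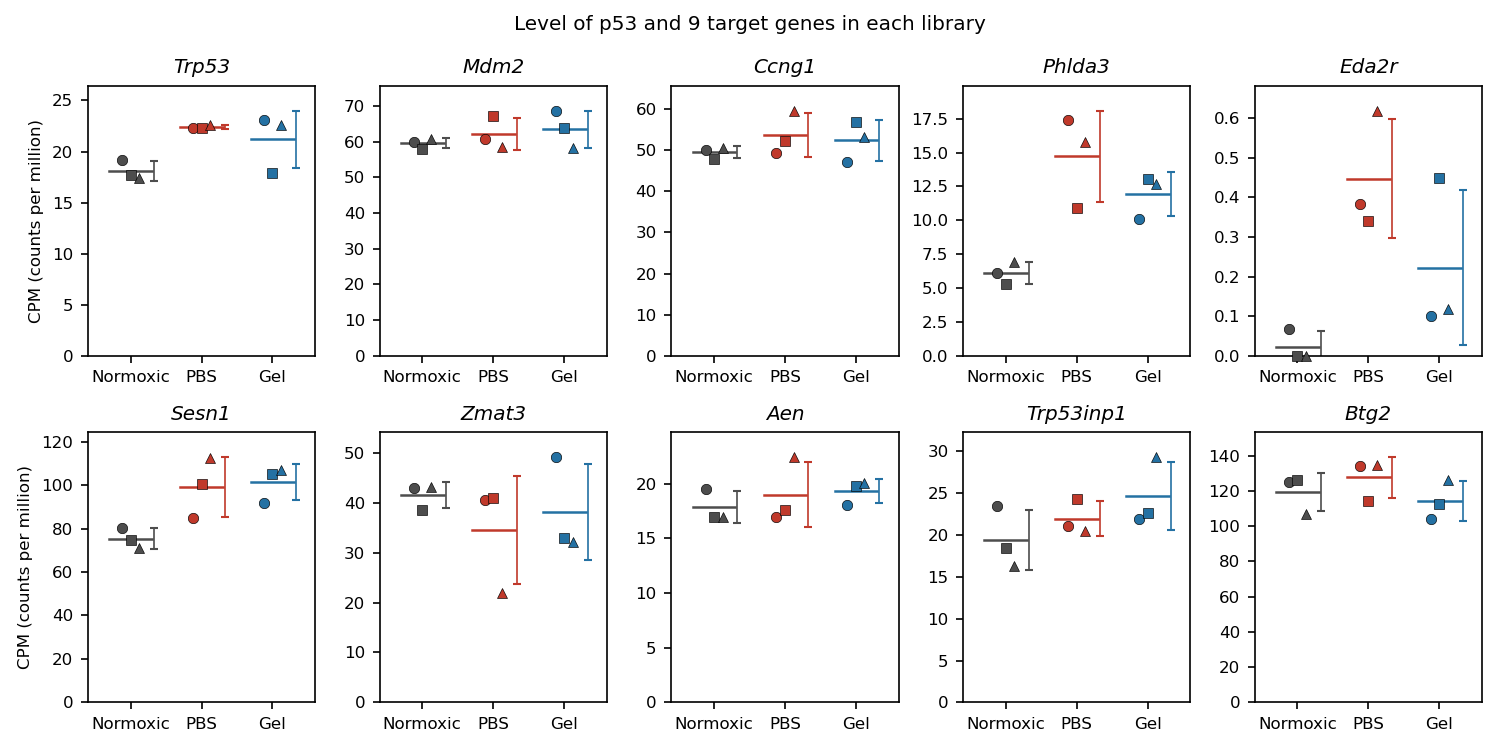
Level of p53 and the 9 target genes in each of the 9 libraries, in CPM on a linear axis that starts at 0, with 1 panel per gene and its own scale. Circles, squares and triangles are replicates 1, 2 and 3, horizontal lines are group means and bars are SD (n = 3). Phlda3 and Eda2r stand higher in the PBS than in the Normoxic libraries, whereas the groups of Mdm2, Ccng1, Zmat3, Aen, Trp53inp1 and Btg2 overlap.

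Trp53 itself (Entrez 22059) was measured at 19.2, 17.7 and 17.4 CPM in the Normoxic libraries, at 22.3, 22.4 and 22.6 CPM in the PBS libraries and at 23.1, 17.9 and 22.6 CPM in the Gel libraries. All PBS libraries lay above all Normoxic libraries, and 1 Gel library, replicate 2, lay at the Normoxic level. The log2 fold change of PBS against Normoxic was 0.32 ± 0.12 (SE) and was not called (edgeR adjusted p = 0.148). It was not called in any of 19 alternative analyses either, in which the adjusted p ran from 0.12 to 0.353. With the trend of gene length removed, the value was 0.23. Gel differed from Normoxic by 0.24 ± 0.12 (adjusted p = 0.435) and from PBS by -0.08, with a 95% interval from -0.34 to 0.18 (adjusted p = 0.987).

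The feedback genes stayed within the spread of the libraries. Mdm2 (Entrez 17246), the ubiquitin ligase that removes p53, was measured at 59.9, 58.0 and 60.8 CPM in Normoxic, 60.6, 67.2 and 58.6 CPM in PBS and 68.6, 63.7 and 58.3 CPM in Gel libraries. The 3 groups overlapped. Its log2 fold change was 0.07 ± 0.10 (SE) in PBS and 0.10 ± 0.10 in Gel against Normoxic (edgeR adjusted p = 0.706 and 0.689). The 95% interval of the PBS difference ran from -0.14 to 0.28, and the value was 0.18 with the trend of gene length removed. Ccng1 (Entrez 12450), cyclin G1, a p53 target that acts back on Mdm2, was measured at 49.9, 47.8 and 50.6 CPM in Normoxic, 49.3, 52.2 and 59.6 CPM in PBS and 47.0, 56.9 and 53.3 CPM in Gel libraries. Its groups overlapped too, with PBS replicate 3 the highest of the 9 libraries. The log2 fold change of PBS against Normoxic was 0.13 ± 0.12 (edgeR adjusted p = 0.541), and 0.02 without PBS replicate 3.

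Phlda3 (Entrez 27280), a small protein that competes with Akt for membrane lipids and so restrains this survival kinase, was the only one of the 10 genes called in both comparisons with Normoxic. It was measured at 6.10, 5.32 and 6.96 CPM in Normoxic, at 17.4, 10.9 and 15.8 CPM in PBS and at 10.1, 13.04 and 12.7 CPM in Gel libraries. Every OIR library, injected with PBS or Gel, lay above every Normoxic library, and the PBS and Gel libraries overlapped. Phlda3 rose by 1.28 ± 0.20 (log2, SE) in PBS against Normoxic (edgeR adjusted p = 0.00488), a call that held in all 19 alternative analyses, with log2 fold changes of 1.08 to 1.46 and an adjusted p of at most 0.0334. Without PBS replicate 3 the value was 1.20. With Gel it rose by 0.97 ± 0.20 against Normoxic (edgeR adjusted p = 0.0456), a call that 7 of 19 alternatives lost: limma-voom, limma on log2(FPKM + 1), and leaving out any single Normoxic library, Gel replicate 2 or Gel replicate 3 (adjusted p up to 0.223). Gel differed from PBS by -0.31, with a 95% interval from -0.74 to 0.13 (adjusted p = 0.987), an interval that includes 0. Both OIR groups were compared with the same Normoxic libraries, so the 2 rises are not independent.

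In bulk RNA, more cells of a type and more RNA per cell cannot be told apart, and cell type markers moved beside Phlda3. The 7 microglia and macrophage markers summed to 36.9 to 42.1 CPM in Normoxic, 104 to 150.2 CPM in PBS and 79.0 to 103 CPM in Gel libraries, and 4 of the 7 were called higher in each OIR group against Normoxic. The 5 pericyte and smooth muscle markers summed to 113 to 132 CPM, 254 to 394 CPM and 186 to 242 CPM, with 3 of 5 called higher in PBS and 0 in Gel against Normoxic. Of the 6 endothelial markers, 4 were called higher and 1, Kdr, lower in PBS, and 2 higher in Gel, against Normoxic, and their sums overlapped (259 to 307 CPM, 248 to 312 CPM and 299 to 313 CPM). The 5 amacrine markers summed to 1243 to 1272 CPM in Normoxic and to 797 to 979 CPM in PBS and 954 to 1035 CPM in Gel libraries. Their part in the rise of Phlda3 was not tested.

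Eda2r (Entrez 245527), a member of the tumour necrosis factor receptor family that binds ectodysplasin A2, was close to the limit of detection. It was counted 2, 0 and 0 times in the Normoxic libraries, 12, 10 and 22 times in the PBS libraries and 3, 16 and 4 times in the Gel libraries, and a count of 0 allows up to 3 counts. The CPM values were 0.0682, 0 and 0 for the Normoxic replicates, 0.382, 0.341 and 0.619 for PBS, and 0.101, 0.449 and 0.119 for Gel. Each PBS library lay above each Normoxic library, and 2 of 3 Gel libraries lay between the Normoxic and the PBS range. Summed over the libraries of a group, the counts per total in PBS were 21.1 times those in Normoxic (44 against 2 counts), with an exact 95% interval from 5.51 to 179.9 that covers counting error only. Eda2r was called higher in PBS than in Normoxic (edgeR adjusted p = 0.032), but the call was lost in 7 of 18 alternatives, among them leaving out any single Normoxic library, PBS replicate 1 or PBS replicate 3 (adjusted p up to 0.237). In Gel the ratio to Normoxic was 10.7 (95% 2.65 to 93.9, 23 against 2 counts, adjusted p = 0.197). The ratio of Gel to PBS was 0.508 (95% 0.293 to 0.86), an interval that leaves out the spread between libraries, and the test over libraries gave an adjusted p of 0.987. A pseudogene, Gm18111, overlaps Eda2r in RefSeq and has no row in the count table, so reads from it could have been counted as Eda2r.

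Sesn1 (Entrez 140742), sestrin 1, which restrains the growth kinase complex mTORC1 and limits oxidative damage, was measured at 80.3, 74.9 and 71.1 CPM in Normoxic, 85.0, 100.4 and 112 CPM in PBS and 91.7, 105 and 107 CPM in Gel libraries. Every OIR library again lay above every Normoxic library. The log2 fold change was 0.41 ± 0.13 (SE) in PBS and 0.44 ± 0.13 in Gel against Normoxic, and neither was called (edgeR adjusted p = 0.0877 and 0.139). In PBS against Normoxic 3 of 19 alternatives called it (DESeq2, removal of the length trend, and leaving out PBS replicate 1), with an adjusted p of 0.0424 at the lowest, whereas without PBS replicate 3 the value was 0.28 and the adjusted p 0.167. The Gel difference from Normoxic was called by DESeq2, by a fit of these 2 groups alone and without PBS replicate 3, with an adjusted p of 0.0237 at the lowest. Gel and PBS differed by 0.03, with a 95% interval from -0.25 to 0.31 (adjusted p = 0.987).

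Zmat3 (Entrez 22401), a zinc finger protein that binds RNA and affects splicing and mRNA stability, was the only one of the 10 genes with a lower mean in PBS than in Normoxic libraries. It was measured at 43.0, 38.5 and 43.1 CPM in Normoxic, 40.6, 40.9 and 22.0 CPM in PBS and 49.1, 32.9 and 32.2 CPM in Gel libraries. The low mean in PBS rested on replicate 3. The log2 fold change of -0.27 ± 0.22 (SE, edgeR adjusted p = 0.497) was -0.05 without that library, and -0.17 with the length trend removed. Zmat3 has the longest transcript of the 10 in the authors' length values, 8122 bases. A long non-coding gene, 4930429B21Rik, overlaps it and was measured at 0.707 to 1.21 CPM. Mdm4, an inhibitor of p53 related to Mdm2, was low in the same library, with 90.9, 105 and 55.0 CPM in the 3 PBS libraries against 108, 100 and 84.3 CPM in Normoxic (log2 fold change -0.22 ± 0.21, adjusted p = 0.565, and -0.01 without PBS replicate 3).

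Aen (Entrez 68048), an exonuclease that enhances apoptosis, was measured at 19.5, 17.0 and 17.0 CPM in Normoxic, 17.0, 17.5 and 22.4 CPM in PBS and 18.1, 19.8 and 20.1 CPM in Gel libraries. The groups overlapped, and PBS replicate 3 alone set the PBS mean above the Normoxic mean: the log2 fold change was 0.11 ± 0.14 (SE, edgeR adjusted p = 0.693) with it and -0.06 without it. Trp53inp1 (Entrez 60599), a stress-induced nuclear protein that takes part in p53 phosphorylation and autophagy, was measured at 23.4, 18.4 and 16.4 CPM in Normoxic, 21.1, 24.3 and 20.5 CPM in PBS and 21.9, 22.7 and 29.3 CPM in Gel libraries. Normoxic replicate 1 lay among the OIR libraries, so the groups overlapped. Its log2 fold change was 0.19 ± 0.15 in PBS and 0.36 ± 0.15 in Gel against Normoxic (edgeR adjusted p = 0.497 and 0.342).

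Btg2 (Entrez 12227), an antiproliferative protein that recruits mRNA deadenylases and is also induced early after stimulation of neurons, was measured at 125, 126 and 107 CPM in Normoxic, 134, 114 and 135 CPM in PBS and 104, 113 and 126 CPM in Gel libraries. The 3 groups overlapped throughout. The log2 fold change was 0.11 ± 0.12 (SE) in PBS against Normoxic (edgeR adjusted p = 0.623), 0.04 without PBS replicate 3, and -0.16 in Gel against PBS, with a 95% interval from -0.43 to 0.11 (adjusted p = 0.987).

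**Figure D2:**
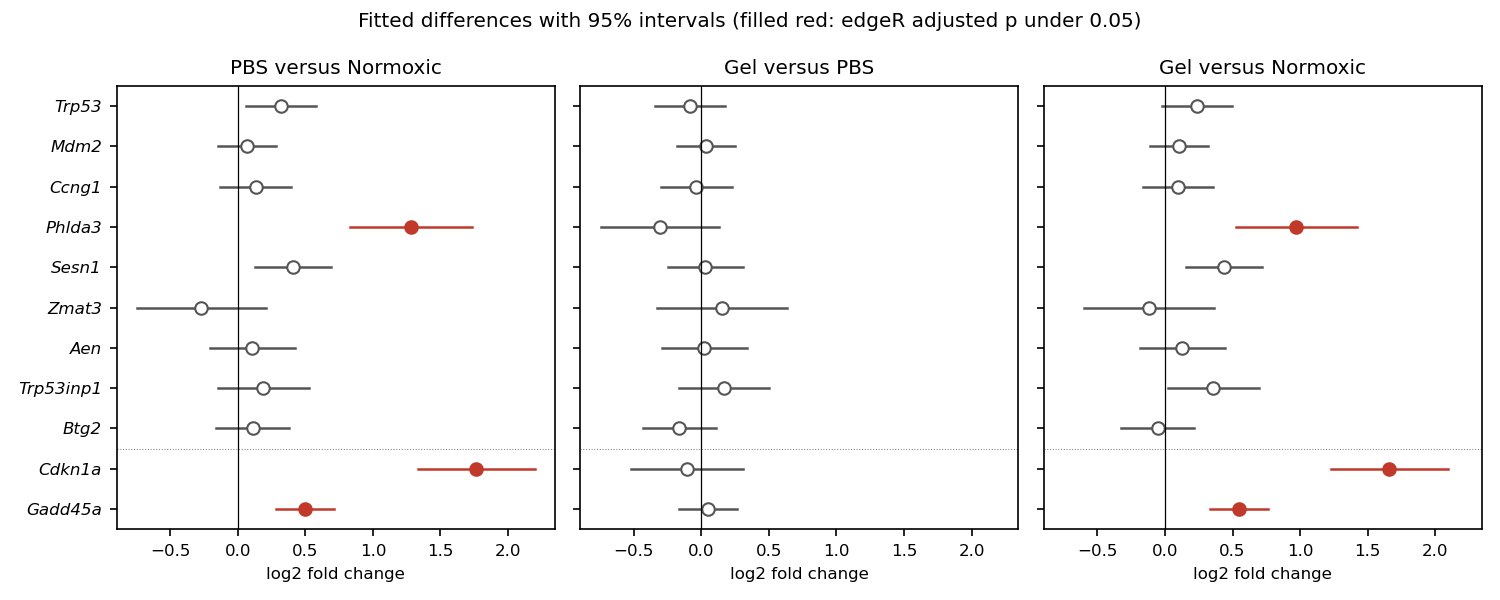
Log2 fold changes of p53, 8 targets and, below the dotted line, Cdkn1a and Gadd45a in the 3 comparisons, from edgeR, with 95% intervals, and filled markers where the adjusted p was under 0.05. Eda2r is left out because its fitted value depends on the prior count. Phlda3 stands apart in both comparisons with Normoxic, at 1.28 and 0.97, as does Cdkn1a. Gadd45a is called in both, at 0.50 and 0.55, but lies near Sesn1, which is not called, at 0.41 and 0.44. Every interval of Gel against PBS includes 0.

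Across the 10 genes, 9 log2 fold changes of PBS against Normoxic were positive, with a median of 0.16, beside a median of 0.01 over all genes tested. For Gel against Normoxic 8 were positive (median 0.18), and for Gel against PBS 5 (median -0.01). Eda2r, which had to differ between groups, is among the positive values in both comparisons with Normoxic and is in all 3 medians. Aen, also positive in PBS against Normoxic, had a value of -0.06 without PBS replicate 3. At an unadjusted edgeR p under 0.05 there were 4 of the 10 genes in PBS and 4 in Gel against Normoxic, Eda2r in both counts, and 0 in Gel against PBS. Of the 17362 genes tested, 3711 (21.4%), 2298 (13.2%) and 961 (5.54%) reached it in these comparisons. DESeq2 called 10 genes higher and 50 lower in Gel against PBS, none of them among the 10, and limma-voom called 0 and 0. The summed level of the 10 genes was 390.02 to 427 CPM in Normoxic, 448 to 469 CPM in PBS and 434 to 462 CPM in Gel libraries, so that both OIR groups lay above the Normoxic group. Most of that sum came from Btg2, Sesn1, Mdm2 and Ccng1.

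Per length, in FPKM (CPM divided by gene length in kilobases), Btg2 had the highest level in Normoxic retinas at 38.7 ± 3.5 (SD, n = 3), followed by Sesn1 at 22.6 ± 1.4 and Ccng1 at 14.5 ± 0.43. Mdm2 at 8.03 ± 0.19 and Trp53 at 7.90 ± 0.41 came next and did not differ beyond their spread. Zmat3 at 5.12 ± 0.32, Phlda3 at 4.18 ± 0.56, Trp53inp1 at 3.57 ± 0.67 and Aen at 3.50 ± 0.29 followed, of which the last 3 lay within each other's spread, and Eda2r at 0.00311 ± 0.0054 was the lowest. In PBS retinas Phlda3 reached 10.04 ± 2.3 FPKM, a level within its spread of Trp53 (9.79 ± 0.075) and of Mdm2 (8.38 ± 0.60). In Gel retinas Phlda3 was at 8.14 ± 1.1 FPKM, beside Mdm2 at 8.57 ± 0.70 and Trp53 at 9.25 ± 1.2. Sesn1 ranked next after Btg2 in each group, with 29.7 ± 4.1 FPKM in PBS and 30.4 ± 2.5 FPKM in Gel retinas.

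The genes whose pattern was most like that of Trp53 over the 9 libraries, by Pearson's r of log2 CPM among 13484 genes with at least 1 CPM on average, were Atpaf2 (0.98), Picalm (0.94), Klf10 (0.93), Cfi (0.93) and Acer2 (0.92). For Phlda3 they were Itih5 (0.99), Anxa3 (0.98), Plat (0.98), Nub1 (0.98) and Lcp1 (0.98). These values describe 9 libraries that share 3 group levels, and so follow any gene that differs between the groups in the same order. Phlda3 was not among the 5 for Trp53.

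The other genes of the pathway were taken from lists by role. Of 8 tested targets that arrest the cell cycle, 2 were called higher and 0 lower in PBS and likewise in Gel against Normoxic. In Gel against PBS 0 were called, and the medians were 0.02, 0.19 and -0.03. Of all genes, 4.31% were called higher in PBS and 1.12% in Gel against Normoxic. The 2 were the same genes in both comparisons. Cdkn1a (Entrez 12575) was measured at 7.88, 7.88 and 9.21 CPM in Normoxic, 29.8, 20.2 and 33.8 CPM in PBS and 23.9, 25.6 and 28.9 CPM in Gel libraries. It rose by 1.77 ± 0.20 (log2, SE) in PBS and by 1.66 ± 0.20 in Gel against Normoxic (edgeR adjusted p = 0.000743 and 0.00306), and both calls held in all 19 alternatives. Gel differed from PBS by -0.11, with a 95% interval from -0.52 to 0.31. Every OIR library lay above every Normoxic library and PBS and Gel libraries overlapped, both as for Phlda3.

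Gadd45a (Entrez 13197), a stress sensor that blocks entry into mitosis, was measured at 38.4, 39.2 and 38.6 CPM in Normoxic, 50.2, 55.3 and 57.3 CPM in PBS and 56.3, 57.7 and 54.7 CPM in Gel libraries. It rose by 0.50 ± 0.10 (log2, SE) in PBS and by 0.55 ± 0.10 in Gel against Normoxic (edgeR adjusted p = 0.0129 and 0.0224). The first call was lost with the length trend removed and without any single Normoxic library (adjusted p up to 0.104). The second was lost without any single Normoxic library, Gel replicate 2 or Gel replicate 3 (up to 0.124). Plk2, a p53-induced kinase of the same list, had a log2 fold change of -0.02 in PBS against Normoxic (adjusted p = 0.935), and -0.12 without PBS replicate 3.

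Of 14 tested targets that promote apoptosis, 0 were called in any of the 3 comparisons. At an unadjusted edgeR p under 0.05 there were 5, 0 and 2 in PBS against Normoxic, Gel against PBS and Gel against Normoxic, with medians of 0.33, -0.11 and 0.12. The shares of all genes at that p were 21.4%, 5.54% and 13.2%. The classical pair was not called. Bax, which opens the outer mitochondrial membrane, had a log2 fold change of 0.28 ± 0.16 (SE) in PBS against Normoxic (edgeR adjusted p = 0.331). Bbc3, which encodes Puma, had one of -0.45 ± 0.19 (edgeR adjusted p = 0.206). It is among the 5 at an unadjusted p under 0.05, in the lower direction. Without PBS replicate 3 the value of Bax was 0.05 and that of Bbc3 -0.28. Fas, a death receptor, was counted 20 times in Normoxic, 73 times in PBS and 55 times in Gel libraries. Its counts per total in PBS were 3.50 times those in Normoxic (95% counting interval 2.11 to 6.07), and the test over libraries gave an adjusted p of 0.0657, or 0.0284 by DESeq2. Pmaip1, which encodes Noxa, was measured at 0.239, 0.185 and 0.196 CPM in Normoxic, 0.382, 0.307 and 0.535 CPM in PBS and 0.774, 0.589 and 0.653 CPM in Gel libraries. All Gel libraries lay above all PBS libraries and these above all Normoxic libraries, at group counts of 66, 40 and 19. Like Eda2r, Fas and Pmaip1 lay under the filter's cutoff of 0.319 CPM in every Normoxic library. Both passed the filter through OIR libraries only and so had to differ between groups. Both are included in the counts and medians of this list. Its log2 fold change in PBS against Normoxic was 1.00, and 0.72 without PBS replicate 3. Pmaip1 was not called by edgeR in PBS against Normoxic, Gel against PBS or Gel against Normoxic (adjusted p = 0.214, 0.987 and 0.0857), and in the last it was called by DESeq2 and by limma on log2(FPKM + 0.1), with an adjusted p of 0.0388 at the lowest.

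**Figure D3:**
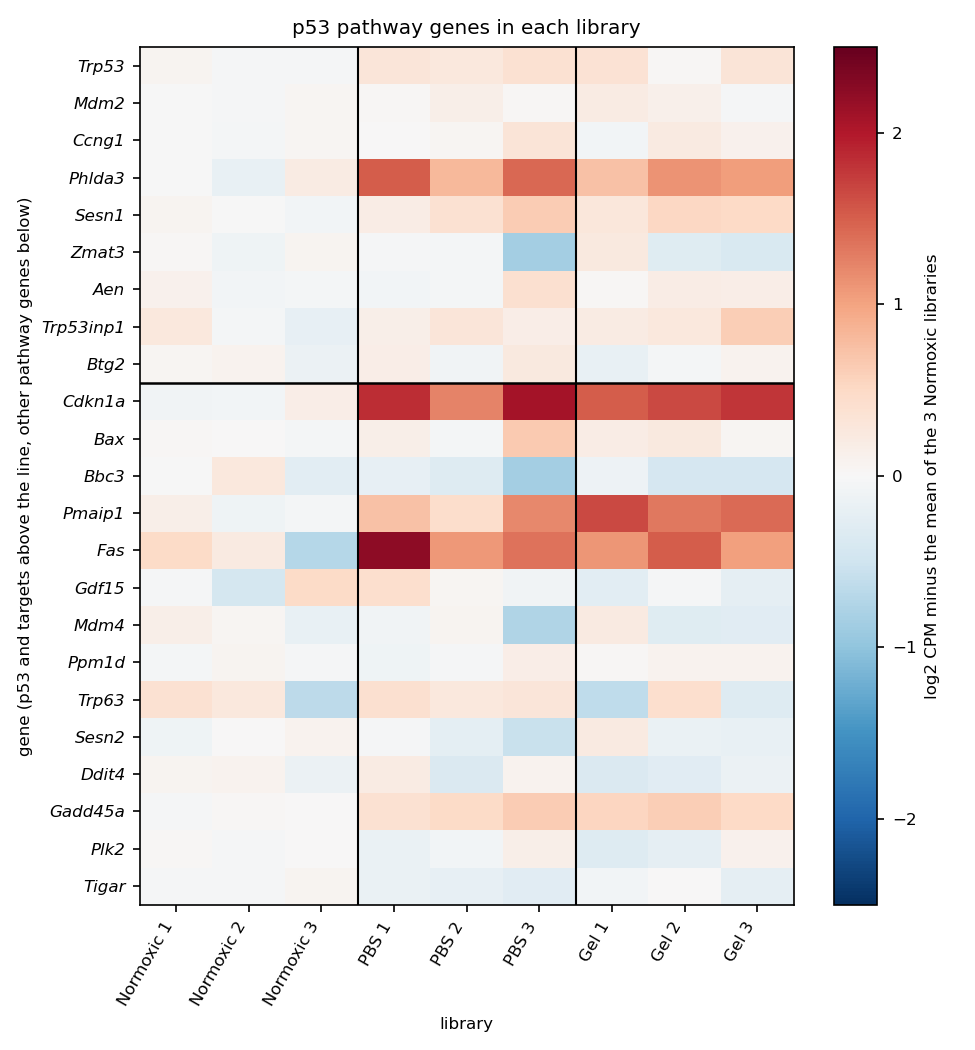
Log2 CPM of each library minus the mean of the 3 Normoxic libraries, for p53 and 8 targets (above the line) and 14 further genes of the pathway (below it). Columns are the 9 libraries, and the colour scale is given on the right. Cdkn1a, Phlda3, Fas and Pmaip1 are redder in all 6 OIR libraries, Zmat3 and Mdm4 are blue in PBS replicate 3, and the rows of Mdm2 and Ppm1d stay pale. Fas and Pmaip1 passed the filter through OIR libraries only. Eda2r and Trp73 are left out because of their low counts, whereas Fas, Pmaip1 and Trp63, also low, are shown.

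Upstream of p53, 0 of 20 tested family members and regulators were called in any comparison, and their median log2 fold change was -0.04 in PBS and -0.05 in Gel against Normoxic. At an unadjusted p under 0.05 there were 4 and 1, beside 21.4% and 13.2% of all genes, and 0 in Gel against PBS. Ppm1d, the phosphatase that ends p53 signalling and is itself a target, had a log2 fold change of 0.01 (edgeR adjusted p = 0.948), and Trp63, a relative of p53, one of 0.29 (adjusted p = 0.748) in PBS against Normoxic. Trp73, the other relative, did not pass the filter on low counts. Of 16 tested genes of the DNA damage response, 0 were called in any comparison, and 1 in each had an unadjusted p under 0.05. Of 8 tested targets that repair DNA or supply nucleotides, 0 were called (2, 0 and 1 at an unadjusted p under 0.05 in PBS against Normoxic, Gel against PBS and Gel against Normoxic). The shares of all genes at that p were 21.4%, 5.54% and 13.2%. Of all genes, 4.31% were called higher and 2.03% lower in PBS, and 1.12% and 0.288% in Gel, against Normoxic. In lists this short, a count of 0 called lies near these shares.

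Of 11 tested targets in metabolism and redox control, 0 were called in any comparison (4, 0 and 2 at an unadjusted edgeR p under 0.05, beside 21.4%, 5.54% and 13.2% of all genes). Of all genes, 4.31% were called higher and 2.03% lower in PBS, and 1.12% and 0.288% in Gel, against Normoxic. The median of these 11 targets was -0.17 in PBS against Normoxic, against a median of 0.16 for the 10 genes. Sesn2, the relative of Sesn1, had a log2 fold change of -0.27 ± 0.16 (SE, adjusted p = 0.356), Tigar, which diverts glucose to the pentose phosphate pathway, one of -0.22 ± 0.10 (adjusted p = 0.229), and Ddit4, a hypoxia and stress inhibitor of mTORC1, one of -0.005 ± 0.15 (adjusted p = 0.989). Without PBS replicate 3 the value of Sesn2 was -0.14. Among targets that are secreted, Igfbp3, which binds insulin-like growth factors and is also induced in other ways than by p53, rose by 2.08 ± 0.18 in PBS and 1.75 ± 0.18 in Gel against Normoxic (edgeR adjusted p = 0.000229 and 0.00151). Gdf15, a secreted stress hormone, was measured at 1.36 ± 0.44 CPM in Normoxic and 1.45 ± 0.31 CPM in PBS libraries (SD, n = 3) and was not called (adjusted p = 0.869).

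**Figure D4:**
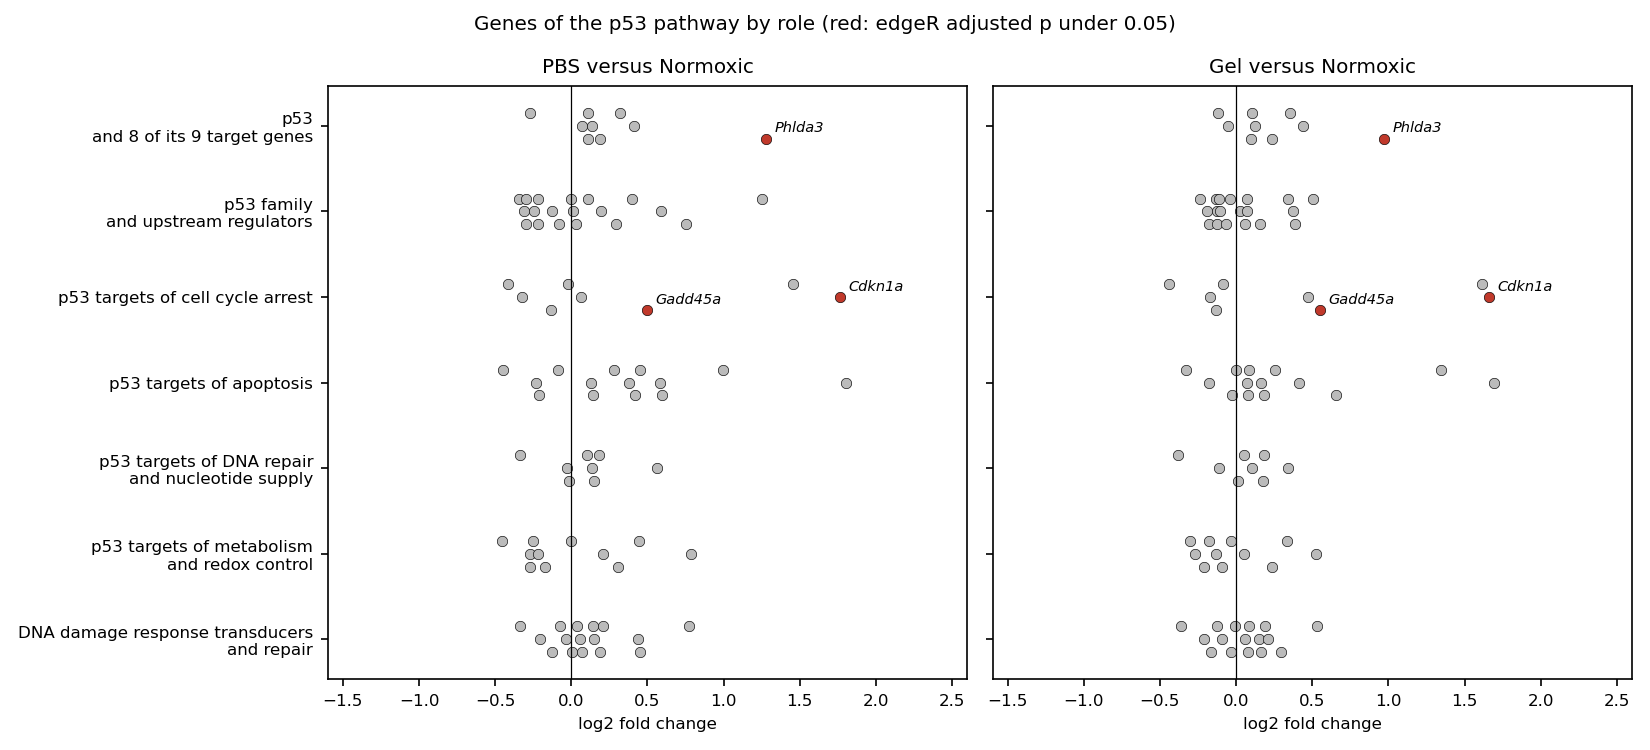
Log2 fold changes from edgeR of the tested genes of the p53 pathway by role, PBS against Normoxic on the left and Gel against Normoxic on the right, with 1 point per gene. Red points have an adjusted p under 0.05 and are named: Phlda3, Gadd45a and Cdkn1a in both panels. Eda2r and the secreted targets are left out, and the other points lie at or below 1.80.

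Genes of mitosis and DNA replication are repressed when p21 holds the DREAM complex on their promoters. Of 18 such genes tested, 8 were called higher and 0 lower in PBS against Normoxic, beside 4.31% and 2.03% of all genes. The median log2 fold change was 1.73. A gene with few Normoxic counts could pass the filter through OIR libraries only, as Eda2r did. Which of the 18 did so is not given here, so the calls and medians against Normoxic may partly follow from the filter. The summed levels of the 18 genes were 57.5 to 66.9 CPM in Normoxic, 82.0 to 96.9 CPM in PBS and 71.6 to 77.1 CPM in Gel libraries. In proportion, the PBS sums rose less than the median gene, so they came mostly from genes that changed less. For Gel the same comparison called 3 higher and 0 lower (median 0.77), beside 1.12% and 0.288% of all genes. In Gel against PBS 0 were called (median -0.68, 5 at an unadjusted edgeR p under 0.05, beside 5.54% of all genes). Mki67, a marker of cycling cells, rose by 3.24 ± 0.36 in PBS and 2.10 ± 0.36 in Gel against Normoxic (adjusted p = 0.000738 and 0.0197). Top2a, the DNA topoisomerase of dividing cells, rose by 3.88 ± 0.56 and 2.84 ± 0.56 (adjusted p = 0.003 and 0.0376). The calls of Mki67 and Top2a in Gel were lost in 6 and 7 of 19 alternatives, and that of Ccnb1 in 10 of 18. In PBS against Normoxic the calls of Aurkb and Ccnb2 were lost in 6 of 18 and 3 of 19 alternatives. The PBS values of Mki67 ran from 0.41 to 3.57 over the alternatives, and those of Top2a from 0.62 to 4.95. These spans are wide, so the size of both rises is not settled. The part of low Normoxic counts in these spans was not tested. Cdkn1a, Mki67 and Top2a were thus higher together in PBS than in Normoxic retinas, in RNA that pools all cells of the tissue.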

How the data were processed

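The authors deposited whole-number counts per gene and library. The submitters' processing notes name the build GRCm39 and the tools RSEM 1.3.1, Bowtie2 and DESeq2 1.4.5 without their roles, and whether RSEM estimates were rounded to make the counts is not stated there. The authors also deposited FPKM values, which equal each count over its library total and over 1 length per gene, and served for gene length and for alternatives.

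Counts were analysed in R 4.3.3 with edgeR 4.0.16: filterByExpr (minimum count 10) kept 17362 genes (65.1%), libraries were scaled by TMM, and the quasi-likelihood F test used all 9 libraries and no covariate beside group (common dispersion 0.0312). Standard errors come from dividing the log2 fold change by the root of F, and intervals (95%) use the t distribution of the fit. Count ratios carry exact 95% intervals for counting error only. The procedure was tested on simulated data. Alternatives used DESeq2 1.42.0, limma 3.58.1 (voom, and log2(FPKM + 0.1) and log2(FPKM + 1)), other scalings and filters, removal of the trend with gene length, 2 groups only, a replicate block and leaving out each library. Replicate numbers did not pair the libraries.

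The 10 genes, the gene lists and the markers were chosen with earlier results of these data known. Text names the 10 genes, a panel of p53 pathway genes and up to 6 called genes with the smallest p per list and comparison. Of the listed genes, 4 (Ptprv, Sco2, H2ax and Mpo) were not analysed here. The list of secreted and cell surface targets is given only in part, and the rest of it is not reported here.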

Additional observations from a re-analysis of the deposited data

How the results depend on the processing

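The 10 genes changed the direction of no called value in the 19 alternatives, and 0 were called lower in any comparison under any of them. Values that were not called did change sign. Aen did so in PBS against Normoxic without PBS replicate 3, and Btg2 in Gel against Normoxic. In Gel against PBS, Trp53, Mdm2, Ccng1, Sesn1, Zmat3 and Aen changed sign in some alternatives. Depth limits Eda2r, which had 2 to 44 counts per group, and with 3 libraries a group a change as small as that of Trp53 was not called. The causes of the shifts below were not tested.

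In PBS against Normoxic, 748 genes were called higher and 353 lower; DESeq2 called 1144 and 714, and a fit of these 2 groups alone called 214 lower. Of the 10 genes 2 were called higher, and 1 with a filter of at least 1 CPM in 3 libraries, which drops Eda2r, 3 with DESeq2, 3 with the length trend removed, 1 with log2(FPKM + 0.1) and 1 with log2(FPKM + 1). Leaving out 1 library gave 371 to 797 higher, 83 to 415 lower and 1 to 2 of the 10, the fewest without a Normoxic library. In Gel against PBS, 0 and 0 genes became 10 and 50 with DESeq2, 3 and 21 without a filter, and 1 and 2 with the length trend removed, with 0 to 1 higher and 0 to 11 lower when 1 library was left out. In Gel against Normoxic, 195 higher and 50 lower became 535 and 234 with DESeq2, 327 and 109 with the length trend removed and 428 and 215 with these 2 groups alone; 318 were called higher without a filter and 122 with log2(FPKM + 1). Of the 10 genes 1 was called higher there, against 2 with DESeq2, 2 with the 2 groups alone, 0 with limma-voom and 0 with log2(FPKM + 1). Leaving out 1 library gave 44 to 494 higher, 3 to 241 lower (the most without PBS replicate 3) and 0 to 2 of the 10.

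With the replicate number as a block, 727 genes were called higher and 323 lower in PBS against Normoxic, 0 and 0 in Gel against PBS and 192 and 35 in Gel against Normoxic, with 2, 0 and 1 of the 10 genes higher. Numbers did not pair libraries: same-numbered libraries deviated together with correlations of -0.21 to 0.36 over 9 pairs, 2 of them over 0.1, and 4 of 9 libraries correlated best with their own number.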

Other observations

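Stress genes outside the p53 lists above, some of which also act with p53 or on its targets, were measured in the same libraries. The integrated stress response is the program that follows eIF2α phosphorylation. Of 12 tested genes, 5 were called higher and 0 lower in PBS against Normoxic, beside 4.31% and 2.03% of all genes. The 5 were Nupr1, Trib3, Ddit3, Stc2 and Atf5, and the median log2 fold change of the 12 was 0.44. The calls of Stc2, Atf5 and Trib3 were lost in 6, 5 and 2 of 19 alternatives. In Gel against Normoxic 2 were called higher, Nupr1 and Ddit3 (median 0.30), beside 1.12% of all genes. In Gel against PBS 0 were called (median -0.19, 4 at an unadjusted edgeR p under 0.05, beside 5.54% of all genes). Ddit3, the transcription factor CHOP, was measured at 38.0 CPM on average in Normoxic, 62.0 in PBS and 59.9 in Gel libraries, and rose by 0.72 ± 0.14 (log2, SE) in PBS and 0.67 ± 0.14 in Gel against Normoxic (edgeR adjusted p = 0.0134 and 0.0466). The call of Ddit3 in Gel was lost in 11 of 19 alternatives, and that in PBS without Normoxic replicate 1 or 2. The call of Nupr1 in Gel against Normoxic was lost in 9 of 19 alternatives. In Gel against PBS, Nupr1 had a log2 fold change of -1.54 (edgeR adjusted p = 0.189) and was called lower by DESeq2 (adjusted p = 2.38e-05), without a filter and without PBS replicate 2.

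Immediate early genes, a class to which Btg2 is often counted, did not move one way. Of 16 tested, Atf3 was called higher and Dusp1 lower in PBS against Normoxic, with a median of 0.07. In Gel against Normoxic Atf3 was called higher and Fos and Dusp1 lower (median -0.25). In Gel against PBS 0 were called (median -0.33, 3 at an unadjusted edgeR p under 0.05, beside 5.54% of all genes). Of all genes, 4.31% were called higher and 2.03% lower in PBS, and 1.12% and 0.288% in Gel, against Normoxic. Atf3, a stress-induced partner of p53, rose by 2.10 ± 0.25 in PBS and 1.81 ± 0.25 in Gel against Normoxic (edgeR adjusted p = 0.000973 and 0.00651). Fos had a log2 fold change of -1.11 ± 0.31 in PBS (edgeR adjusted p = 0.0587) and fell by 1.65 in Gel against Normoxic (edgeR adjusted p = 0.0304). In PBS 6 of 19 alternatives called Fos lower, DESeq2 and limma-voom among them. In Gel its call was lost in 5 of 19. The call of Dusp1 was lost in 4 of 19 alternatives in PBS and 3 of 19 in Gel.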
